A study of Mus musculus with 113 samples.

Results

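A set of 8 genes that handle retinoic acid or respond to it were followed in mouse preimplantation embryos, in the RNA-seq libraries of a study of NR5A2 and other nuclear receptors. The genes were taken from a list of names and not by their values: *Cyp26a1*, *Cyp26b1*, *Crabp1*, *Crabp2*, *Dhrs3*, *Stra6*, *Stra8* and *Aldh1a2*, 8 of the 24006 genes in the files. All 8 were listed in each of the 92 libraries with FPKM values (expression normalised to transcript length and library size), out of 113 samples in the series. The other 21 samples belong to chromatin assays and were not analysed here.

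Retinol from the circulation enters cells through the receptor STRA6 and is oxidized to retinal and then, by ALDH1A2 and its relatives, to retinoic acid. DHRS3 reduces retinal back to retinol. CRABP1 and CRABP2 bind retinoic acid inside the cell, CYP26A1 and CYP26B1 break it down, and the nuclear receptors RARA, RARB and RARG, paired with RXR partners, bind it on DNA. *Cyp26a1*, *Crabp2*, *Dhrs3*, *Stra6* and *Stra8* are textbook targets of these receptors, and STRA8 is best known for the entry of germ cells into meiosis.

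RARG was the retinoic acid receptor that the study targeted, alone and with NR5A2, NR1H3 and NR2C2. Embryos from C57BL/6N females mated with PWK/PhJ males (strains from the study's methods, genotype wild type in the labels) were injected with siRNA and pooled, with 2 pools per group. The 4KD groups received siRNA against *Nr5a2*, *Rarg*, *Nr1h3* and *Nr2c2*, each at 5 µM, and were collected at the 4-cell (4C) and 8-cell (8C) stage with negative control (NC) siRNA groups at 20 µM. At 8C, 4 triple KD groups each left out 1 of the 4 siRNAs (NC siRNA at 15 µM), and 4 single KD groups received 1 of them (NC siRNA at 5 µM). At the 2-cell (2C) stage, *Nr5a2* siRNA and NC siRNA were injected at 20 µM. Single embryos at 2C and 8C had been injected with base editor (BE) mRNA, with a guide RNA (sgRNA) against *Nr5a2*, or with both (BE + sgRNA), at 100 ng/µl, with 8, 8 and 14 embryos per stage. The edit is meant to place a stop codon in *Nr5a2*, so the level of its mRNA does not report it. The labels give only BE, but column headers of single embryo libraries name the editor as eBE or BE4. Libraries without an editor name were placed by their library numbers, except 3 at 2C that could not be. The 2 sets are called the eBE and the BE4 run of library numbers below, and editor and run cannot be told apart.

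Library totals ran from 83391.8 to 556462 FPKM, and 5472 to 11921 genes per library reached 1 FPKM. Read counts were not in the files, so the depth behind a value is unknown. A relative depth taken from the spacing of low FPKM values lay between 0.363 and 1.52 around a median of 1. FPKM of 0 may reflect too few reads as well as no transcript. Groups of 2 pools often lie apart by chance, and the share of all genes whose pools did not overlap was not counted. In these bulk values, fewer cells that carry a transcript and less of it per cell cannot be told apart. The column headers of 3 single embryo libraries name the 4-cell stage (1 labelled 2C sgRNA and 2 labelled 8C BE + sgRNA), and leaving them out moved no call reported here. The summed FPKM of 8 late 2C markers had a median of 547 in single 2C embryos and 105 in single 8C embryos. *Eif1a*, 1 of the 8, rose (medians 18.9 and 92.5 FPKM) and made up most of the 8C sum, while the medians of the others fell. The sum of 9 markers of later cleavage embryos had medians of 434 and 3674, mostly from *Dppa5a* (337 and 3066).

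The promoters of members are shown because their sequence bears on which of them carries a recognisable receptor site. RARs bind pairs of the hexamers AGGTCA or AGTTCA in the same orientation, with spacers of 1, 2 or 5 bases (DR1, DR2 and DR5). RefSeq promoter windows (250 bases before to 50 bases after the transcription start) were found for 7 of the 8 members, with 12 windows in all, and *Crabp2* had none in the table. The 3 windows printed here belong to the DR5-containing *Cyp26a1* and to *Crabp1* and *Stra8*, whose levels are described below. Each was matched exactly once to mm9, on the plus strand, at chr19:37772048-37772347 for *Cyp26a1*, chr9:54612305-54612604 for *Crabp1* and chr6:34870698-34870997 for *Stra8*. Capitals mark AGGTCA or AGTTCA on either strand.
Cyp26a1: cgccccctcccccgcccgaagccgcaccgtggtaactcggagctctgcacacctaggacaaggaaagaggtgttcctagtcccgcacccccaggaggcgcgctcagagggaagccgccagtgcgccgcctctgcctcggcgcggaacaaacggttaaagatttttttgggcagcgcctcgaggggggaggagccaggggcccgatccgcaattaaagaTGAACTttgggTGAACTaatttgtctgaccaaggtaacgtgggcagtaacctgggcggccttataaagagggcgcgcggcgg
Crabp1: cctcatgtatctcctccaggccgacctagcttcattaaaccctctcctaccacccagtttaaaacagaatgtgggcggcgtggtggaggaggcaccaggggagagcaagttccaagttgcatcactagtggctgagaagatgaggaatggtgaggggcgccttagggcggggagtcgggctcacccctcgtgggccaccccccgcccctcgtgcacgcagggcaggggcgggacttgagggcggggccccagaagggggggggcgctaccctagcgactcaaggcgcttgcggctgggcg
Stra8: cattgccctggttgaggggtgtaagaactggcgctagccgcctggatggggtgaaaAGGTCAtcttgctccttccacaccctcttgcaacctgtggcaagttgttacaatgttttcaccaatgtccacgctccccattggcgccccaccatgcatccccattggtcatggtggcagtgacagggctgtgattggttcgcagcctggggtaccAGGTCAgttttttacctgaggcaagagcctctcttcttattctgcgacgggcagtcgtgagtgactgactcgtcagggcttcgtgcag

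Of 32851 RefSeq promoter windows of this length, 16.3% held AGGTCA and 14% held AGTTCA on either strand. A DR5 of these hexamers stood in 13 windows (0.0396%), a DR1 in 27 (0.0822%) and a DR2 in 13 (0.0396%). *Cyp26a1* was the member with a DR5, on the minus strand from 32 to 16 bases before the start. *Stra8* had AGGTCA at 2 places, which do not form any of these pairs, and *Crabp1* had neither hexamer in its window. The *Stra8* window lies inside the GENCODE gene, which starts further upstream at chr6:34870163, and the sequence before that start was not searched. One *Stra6* window held a single AGTTCA. The longer element CAAGGTCA, which NR5A2 recognises and which contains AGGTCA, stood in 1.56% of all windows and in none of the members' windows. A match is only a string of letters, and a missing match says nothing about sites elsewhere.

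Positions are those of the GENCODE annotation of mm9. *Cyp26a1* is at chr19:37772298-37776018, *Cyp26b1* at chr6:84521938-84543740, *Stra8* at chr6:34870163-34889342, *Crabp1* at chr9:54612555-54620917, *Stra6* at chr9:57911595-58001803, *Aldh1a2* at chr9:71063596-71144050, *Crabp2* at chr3:87752588-87757298 and *Dhrs3* at chr4:144482730-144518112. *Cyp26b1* is transcribed from the minus strand and the other 7 from the plus strand.

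Most members had their highest levels at 2C and low levels afterwards. Of the 8 genes, 6 reached a mean of 1 FPKM in at least 1 of the 22 groups, in each case with the highest mean in a 2C group. *Crabp1* reached 95.9 FPKM (2C *Nr5a2* KD), *Crabp2* 25.1 (2C sgRNA), *Stra8* 10.4 (2C sgRNA), *Cyp26a1* 2.11 (2C BE), *Aldh1a2* 1.94 (2C sgRNA) and *Dhrs3* 1.75 (2C BE + sgRNA). The retinol receptor gene *Stra6* reached 0.286 FPKM at most and the catabolic enzyme gene *Cyp26b1* 0.195, so neither reached 1 FPKM in any group. FPKM are per length, so these levels can be set beside each other: both binding protein genes stood above the enzyme genes among the members at 2C. Other retinoid enzyme genes were not low, as *Rdh10* and *Rdh11* had medians of 30.3 and 19.9 FPKM in single 2C embryos.

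In the 34 libraries of 2C embryos, the median of *Crabp2* was 14.2 FPKM (0 to 92.5), of *Crabp1* 13.5 (0 to 237) and of *Stra8* 3.85 (0 to 27.0). *Crabp2* was above 0 in 33 of these 34 libraries, *Crabp1* in 31 and *Stra8* in 30. The other 3 expressed members had medians of 1.10 FPKM for *Dhrs3* (0 to 7.53), 0.719 for *Aldh1a2* (0 to 7.86) and 0.245 for *Cyp26a1* (0 to 18.8). The order of the medians puts both *Crabp* genes at a similar level with ranges that overlap widely, *Stra8* below them, and the other members below *Stra8*. In the 54 libraries of 8C embryos, the median of every member was 0 FPKM. *Crabp1* was above 0 in 20 of them, with 3.69 FPKM as its highest value, *Aldh1a2* in 15, *Stra8* in 13, *Cyp26b1* in 12, *Crabp2* in 10, *Dhrs3* in 7, *Cyp26a1* in 5 and *Stra6* in 3. *Rarg*, by contrast, was above 0 in all 92 libraries, with a median of 14.3 FPKM at 2C and 19.0 at 8C, the siRNA pools included.

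**Figure D1:**
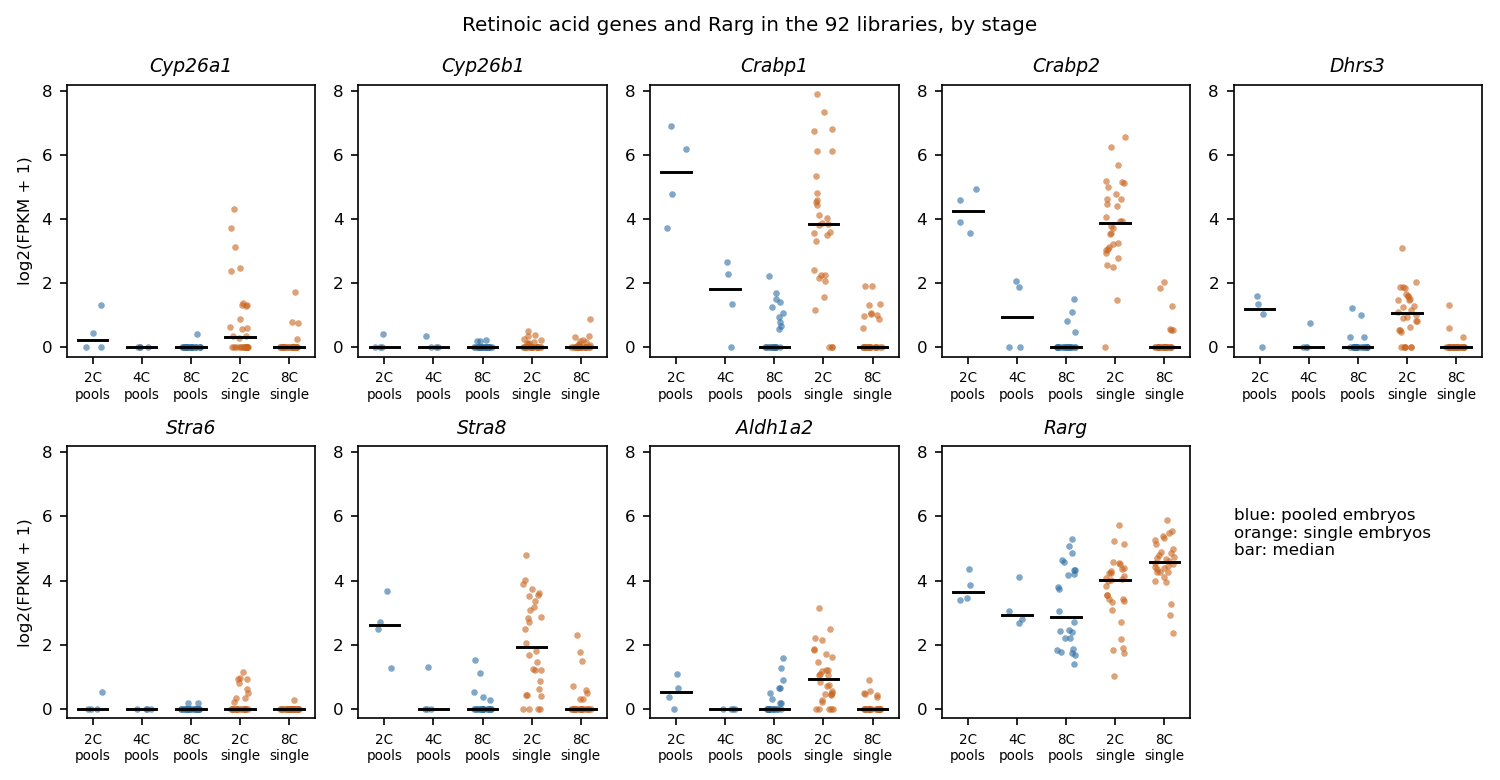
FPKM of the 8 members and of *Rarg* as log2(FPKM + 1) in each of the 92 libraries, split by stage and by pooled (blue) or single embryos (orange), with the median as a bar. *Crabp1*, *Crabp2* and *Stra8* are high at 2C, and the median of each member is 0 at 8C while *Rarg* stays above 0.

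The change with stage was tested first in the NC pools, which were made in different experiments, so that stage and experiment are partly confounded there. *Crabp1* measured 12.3 and 26.2 FPKM in the 2C NC pools, 1.52 and 5.38 in the 4C NC pools, and 1.41, 0.934, 0, 0, 0 and 0 in the 6 NC pools at 8C. The 2C pools lay above every later NC pool. *Crabp2* measured 29.5 and 10.7 FPKM at 2C, 3.23 and 0 at 4C, and 0 in all 6 NC pools at 8C. *Stra8* measured 4.65 and 1.42 FPKM at 2C, 0 and 1.49 at 4C, and 0.425 in 1 of the 6 pools at 8C and 0 in the other 5. Its 2C and 4C values overlapped, and its 2C and 8C values did not.

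From 2C to 4C, 3 members passed the filter of a mean FPKM of 1 in at least 1 group and 2 of them fell, in a comparison in which 32.7% of 11855 genes were called in either direction and 19.7% as lower (limma on log2(FPKM + 1), adjusted p under 0.05). The log2 difference was -3.20 for *Crabp2* (SE 0.59, adjusted p = 0.00175) and -2.25 for *Crabp1* (SE 0.62, adjusted p = 0.0157). *Stra8* had a log2 difference of -1.23 (SE 0.45, adjusted p = 0.0555). The call for *Crabp1* was lost without replicate 1 of the 4C NC pools (-1.58, adjusted p = 0.136) and without replicate 2 of the 2C NC pools (-1.73, adjusted p = 0.126).

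From 2C to 8C in NC pools, all 3 members tested fell, where 50.4% of 11855 genes were called and 30.7% as lower. All 3 passed the filter through their 2C level. The log2 difference was -4.24 for *Crabp2* (SE 0.48, adjusted p = 2.96e-05), -3.88 for *Crabp1* (SE 0.51, adjusted p = 7.65e-05) and -1.80 for *Stra8* (SE 0.37, adjusted p = 0.00168). Without replicate 1 of the 2C NC pools, *Stra8* did not pass (-1.19, adjusted p = 0.0540). The median of all genes tested was -0.28 in this comparison and -0.18 from 2C to 4C, and relative to it the 3 differences from 2C to 8C were -3.96, -3.60 and -1.52. From 4C to 8C within the 4KD experiment, neither *Crabp1* (-0.89, SE 0.76, adjusted p = 0.825) nor *Crabp2* (-1.04, SE 0.78, adjusted p = 0.792) was called in NC pools, where 0% of 10476 genes were called and 776 had an unadjusted p under 0.05 in limma.

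Single embryos gave the same comparison with 16 control embryos at each stage, 8 injected with BE mRNA alone and 8 with sgRNA alone. At 2C, *Crabp1* had a lowest, median and highest value of 1.98, 21.9 and 237 FPKM, and at 8C it was 0 in 13 of 16 embryos with 2.75 as the highest value. *Crabp2* ran from 0 over a median of 17.0 to 92.5 FPKM at 2C, and was 0 in 13 of 16 embryos at 8C, with a highest value of 2.62. *Stra8* ran from 0 over 6.82 to 27.0 FPKM at 2C, and 1 of 16 embryos at 8C was above 0, at 0.238. For each of these genes the medians lay far apart, and the ranges overlapped at their ends.

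*Aldh1a2*, the main enzyme that makes retinoic acid in the later embryo, ran from 0 over 0.856 to 7.86 FPKM at 2C and was above 0 in 1 of 16 embryos at 8C (0.411). *Dhrs3* ran from 0 over 0.883 to 3.12 FPKM at 2C and reached 1.5 at 8C, with 14 of 16 embryos at 0. *Cyp26a1* ran from 0 over 0.496 to 12.2 FPKM at 2C, with 7 of 16 embryos at 0, and at 8C 14 of 16 embryos were at 0 with a highest value of 0.707. These 3 genes were low already at 2C, and their ranges overlapped at 0. *Stra6* was above 0 in 4 of 16 control embryos at 2C (highest 1.20 FPKM) and in 0 of 16 at 8C, and *Cyp26b1* in 7 and 5 of them (highest 0.290 and 0.824).

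All 6 members that passed the filter fell from 2C to 8C in the single control embryos, in a comparison that called 72.6% of 12824 genes in either direction and 43.4% as lower. They too passed it through their 2C level. The log2 difference was -4.46 for *Crabp1* (SE 0.41, adjusted p = 1.46e-11), -3.66 for *Crabp2* (SE 0.42, adjusted p = 1.79e-09) and -2.42 for *Stra8* (SE 0.35, adjusted p = 2.54e-07). Among the low members it was -1.05 for *Aldh1a2* (SE 0.23, adjusted p = 0.000159), -0.93 for *Cyp26a1* (SE 0.30, adjusted p = 0.00691) and -0.80 for *Dhrs3* (SE 0.19, adjusted p = 0.000289). The median of all genes tested was -0.31. With quantile normalization *Cyp26a1* (-0.70, adjusted p = 0.0533) and *Dhrs3* (-0.33, adjusted p = 0.101) were no longer called. *Cyp26a1* also missed the threshold with the BE group alone as control (-0.74, adjusted p = 0.134) and within the eBE run of library numbers (-0.79, adjusted p = 0.0522), and *Dhrs3* with the sgRNA group alone (-0.55, adjusted p = 0.0785).

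**Figure D2:**
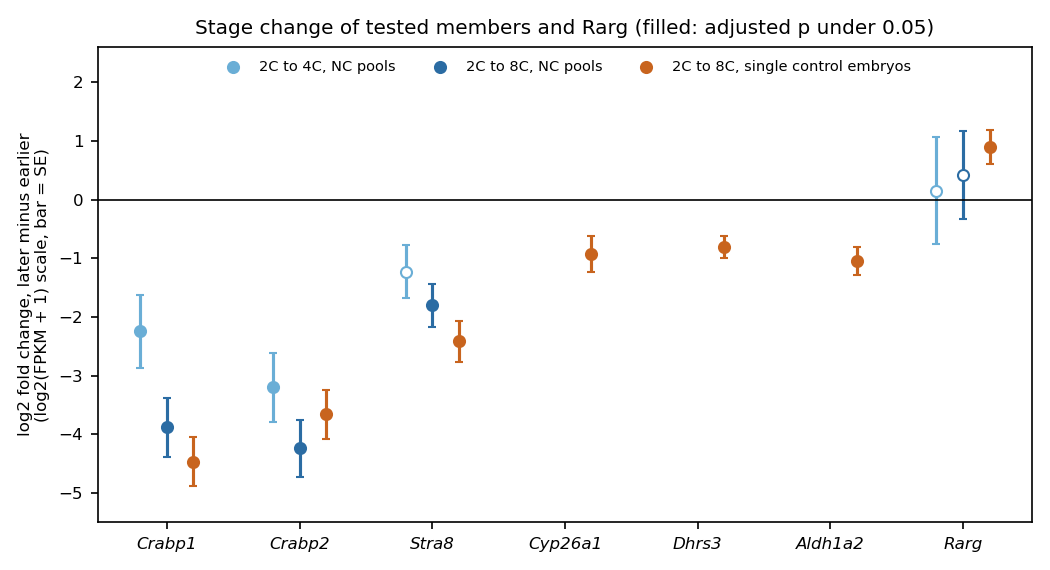
Log2 fold change between stages (later minus earlier, log2(FPKM + 1) scale) with its standard error for the members tested and for *Rarg*, in NC pools and in single control embryos. Filled points passed an adjusted p under 0.05. The 6 members lie between -4.46 and -0.80 in single embryos, and *Rarg* at 0.90.

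Markers of other cells also moved with stage. The summed FPKM of 12 cumulus and granulosa genes had a median of 25.8 in single 2C embryos (6.93 to 75.8) and 15.3 at 8C (1.03 to 49.4), and that of 6 oocyte-deposited genes 1304 and 47.8. *Amhr2* alone made up most of the cumulus sum, with medians of 20.2 and 14.8 FPKM. *Fshr*, a defining granulosa gene, was above 0 in 2 of 30 single embryos at 2C and 0 of 30 at 8C. Other genes of this list were found more often at 2C. *Cyp19a1* was above 0 in 22 embryos at 2C and 3 at 8C, *Tnfaip6* in 21 and 1, and *Has2* in 13 and 0. *Star* was above 0 in 24 and 20, and *Amh* in 1 and 1. The part of these markers in the fall of the members was not tested.

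The other genes of the pathway did not all follow the members. Of 53 further retinoic acid genes on 6 lists, 29 were tested in single control embryos, 8 rose and 16 fell, with a median of -0.62, where 29.2% of all genes tested were called as higher and 43.4% as lower. The lists are small, and their counts below are to be read against these shares. Among the receptors, *Rxrb* rose by 2.12 (SE 0.28, adjusted p = 2.54e-08), *Rarb* by 1.42 (SE 0.28, adjusted p = 3.03e-05), *Rxra* by 1.29 (SE 0.24, adjusted p = 1.56e-05) and *Rarg* by 0.90 (SE 0.29, adjusted p = 0.00645, and 0.0649 with median-ratio scaling), while *Rara* fell (-1.65, SE 0.24, adjusted p = 2.23e-07). *Rxrg* was above 0 in 12 of 30 single embryos at 2C and in 0 of 30 at 8C. The receptor genes thus went both ways between the stages.

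Of 7 genes of retinoid synthesis and reduction tested, 4 fell and 1 rose. *Rdh11*, a retinal reductase, fell (-3.67, SE 0.33, adjusted p = 1.09e-11), and *Rdh10*, which oxidizes retinol to retinal, fell too (-1.60, SE 0.23, adjusted p = 2.18e-07), but *Rdh10* was still above 0 in all 30 single embryos at 8C, with a median of 10.3 FPKM. *Adh5* (-1.88) and *Adh4* (-0.62, adjusted p = 0.110 with quantile normalization) fell, and *Rdh1* rose by 0.46. Among genes of uptake, carriage and storage, *Rbp7*, a cellular retinol binding protein, fell (-3.45, SE 0.28, adjusted p = 5.80e-13), *Dgat1* fell (-0.90, adjusted p = 0.0961 with quantile normalization) and *Rbp2* rose by 0.56. *Cyp2s1*, a cytochrome P450 listed here under catabolism, rose by 5.38 (SE 0.41, adjusted p = 2.19e-13), from a median of 1.08 FPKM in single 2C embryos to 94.2 at 8C, against the direction of *Cyp26a1*.

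Of 6 textbook target genes tested beyond the members, 4 fell and 1 rose. *Meis2* (-4.86, SE 0.32, adjusted p = 7.02e-15) and *Zfp703* (-1.5) were among those that fell, and *Foxa1*, a pioneer factor, rose by 2.64 (SE 0.26, adjusted p = 9.48e-11). Of 6 coregulator genes tested, 5 fell (43.4% of all genes did), from *Ncoa2* (-3.24) over *Ncoa1* (-2.01), *Ncor1* (-1.07) and *Med1* (-0.73) to *Nrip1* (-0.43), and *Nrip1* changed sign with quantile normalization (0.24).

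In NC pools, 4 of 25 further genes tested rose and 7 fell from 2C to 8C, and 2 rose and 6 fell from 2C to 4C, where 50.4% and 32.7% of all genes tested were called. Neither count stands apart from these shares. In the KD and base edit comparisons below, 22 to 26 of them were tested and 0 were called in limma, *Rarg* included, with 0 to 4 at an unadjusted p under 0.05 per comparison.

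Whether lowering *Rarg* changed the members could be asked in 6 groups that received its siRNA, 1 at 4C and 5 at 8C. The siRNA target itself is given first. In the single KD experiment, *Rarg* was at 28 and 33.0 FPKM in NC pools and at 3.64 and 5.47 in *Rarg* KD pools, a log2 difference of -2.52 (SE 0.39, adjusted p = 0.116). The groups did not overlap, although the difference did not pass the adjusted threshold. *Rarg* was at 38.5 and 23.0 in *Nr5a2* KD, 13 and 12.2 in *Nr1h3* KD and 18.9 and 19.1 in *Nr2c2* KD pools. In the triple KD experiment the NC pools differed from each other, at 17.6 and 2.18 FPKM, and the 6 triple KD pools with *Rarg* siRNA lay between 1.61 and 3.6, so that replicate 2 of the NC pools was within their range. The triple KD that left *Rarg* siRNA out measured 23.8 and 4.54 FPKM. In the 4KD experiment *Rarg* was at 16.2 and 7.26 in NC and 5.45 and 5.95 in 4KD pools at 4C, and at 7.31 and 17.2 in NC and 4.27 and 4.40 in 4KD pools at 8C. The knockdown left a remainder of *Rarg* mRNA in every pool.

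At 8C the controls left little room to measure a fall in any member. In the 2 NC pools of the single KD experiment, *Crabp1*, *Crabp2*, *Stra8*, *Cyp26a1*, *Cyp26b1* and *Stra6* were at 0 in both pools, *Dhrs3* was at 0 and 1.01 FPKM, and *Aldh1a2* at 0 and 0.405. In the 2 *Rarg* KD pools, *Crabp1* measured 0 and 1.07 FPKM, *Stra8* 0 and 1.17, *Aldh1a2* 0 and 0.551, and the other 5 members were at 0. One *Rarg* KD pool thus held small amounts of 3 members, and the other held none of any member.

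One member, *Crabp1*, passed the filter in this experiment, and only through the *Nr5a2* KD pools. In *Rarg* KD it was not called (log2 difference 0.53, SE 0.45, adjusted p = 1). The comparison called 1 of 10163 genes (0.00984%), with 382 genes at an unadjusted p under 0.05 in limma and 0 members among them. With no filter on low values 7 members were tested and 0 called. Against the mean of the other 3 single KD groups, which uses no NC pool, the difference of *Crabp1* was -0.08 (SE 0.37, adjusted p = 1), with 0% of genes called and 490 at an unadjusted p under 0.05. Without replicate 2 of the *Rarg* KD pools the difference from NC was 0.

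The other single KD groups share the NC pools with the *Rarg* KD. In *Nr5a2* KD pools *Crabp1* measured 1.64 and 3.69 FPKM against 0 and 0, with a log2 difference of 1.82 (SE 0.45, adjusted p = 0.0588) that missed the threshold, where 2.75% of 10163 genes were called, 0.354% as higher and 2.39% as lower. Of the members, *Crabp1* had an unadjusted p under 0.05 here (0.00185), as did 1835 genes. Relative to the median of all genes (-0.22) the difference was 2.04. *Crabp1* passed the filter of this fit only through these *Nr5a2* KD pools, where it is high. Its p-values and the variants below therefore describe the values and are no support for a rise. The difference passed with quantile normalization (2.02, adjusted p = 0.0343) and without replicate 1 of the *Nr5a2* KD pools (2.23, adjusted p = 0.0495). *Crabp2* was at 0 and 0.773, and *Aldh1a2* at 0.842 and 0.236, in the same pools. Summed oocyte-deposited markers lay at 85.2 to 132 FPKM in *Nr5a2* KD and 34.1 to 42.6 in NC pools. *Zp3* made up most of this sum at 8C, with a median of 47.3 FPKM over all 8C pools (11.8 to 172). No other gene of that list was above 16.3 (*Oosp1*) in any 8C pool. Summed markers of later cleavage embryos lay at 1145 to 1908 and 3067 to 3546, and the part of these markers was not tested. In *Nr1h3* KD (0.00984% of genes called, 297 at an unadjusted p under 0.05) and *Nr2c2* KD pools (0.0787%, 426), *Crabp1*, *Crabp2* and *Stra8* were at 0 in all 4 pools.

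In the triple KD experiment both NC pools were at 0 for 7 of the 8 members, and *Cyp26a1* was at 0 and 0.339 FPKM. *Crabp1* measured 0 and 0 in *Rarg*/*Nr1h3*/*Nr2c2* KD pools, 0.740 and 1.85 in *Nr5a2*/*Rarg*/*Nr2c2*, 0.596 and 0.490 in *Nr5a2*/*Rarg*/*Nr1h3*, and 2.25 and 0 in *Nr5a2*/*Nr1h3*/*Nr2c2* KD pools. The pools with both *Nr5a2* and *Rarg* siRNA were above both NC pools. So was 1 pool without *Rarg* siRNA, at the highest value (2.25), and the triple that spared *Nr5a2* was not. The 8C 4KD pools also received both siRNAs, and there *Crabp1* was at 0 and 0 against 1.41 and 0.934 in NC. *Crabp1* passed the filter of the triple KD fit only through triple KD groups where it was above 0. None of the triple KD differences was called against NC, with 0 members at an unadjusted p under 0.05. In the order of the groups above they were 0.00 (SE 0.56, adjusted p = 1), 1.16 (SE 0.56, adjusted p = 0.748), 0.62 (SE 0.56, adjusted p = 0.920) and 0.85 (SE 0.56, adjusted p = 0.924). These comparisons, which share the NC pools, called 0%, 0.00941%, 0% and 0.0565% of 10626 genes, and 251, 739, 783 and 664 genes had an unadjusted p under 0.05. The median of all genes lay between 0.11 and 0.13 in them.

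The direct comparison of the 3 triple KD groups with *Rarg* siRNA and the 1 without it gave -0.26 for *Crabp1* (SE 0.45, adjusted p = 1), with 0% of genes called and 227 at an unadjusted p under 0.05. Each of the 3 groups also lacks 1 other siRNA, so the difference is not of *Rarg* alone. *Aldh1a2* was listed at 1.98 and 1.43 FPKM in replicate 1 of the *Nr5a2*/*Rarg*/*Nr2c2* and *Nr5a2*/*Rarg*/*Nr1h3* groups and at 0.128 or less in the other 6 triple KD pools, and it did not pass the filter. *Stra8* was at 0.290 and 0.213 in 1 pool each of 2 groups with *Rarg* siRNA and at 0 in the other triple KD pools.

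In the 4KD experiment 2 members passed the filter, *Crabp1* and *Crabp2*. At 4C, *Crabp1* measured 1.52 and 5.38 FPKM in NC and 0 and 3.91 in 4KD pools, and *Crabp2* 3.23 and 0 in NC and 0 and 2.64 in 4KD pools. Both groups overlapped for both genes, and the log2 differences were -0.86 (SE 0.76, adjusted p = 0.929) and -0.11 (SE 0.78, adjusted p = 1). At 8C, *Crabp1* measured 1.41 and 0.934 in NC and 0 and 0 in 4KD pools, and *Crabp2* 0 and 0 in NC and 1.15 and 1.82 in 4KD pools. Within pools of the same number, *Crabp1* was lower in 4KD in both pairs at 4C and in both at 8C. The 8C groups did not overlap and the binding protein genes went opposite ways, with log2 differences of -1.11 (SE 0.76, adjusted p = 0.832) and 1.3 (SE 0.78, adjusted p = 0.815). Neither comparison called a gene (0% of 10476), and 610 genes at 4C and 784 at 8C had an unadjusted p under 0.05. With a replicate block within stage, the adjusted p of *Crabp1* was 0.516 at 4C and 0.384 at 8C, with 1 of all genes called at each stage. The difference of the 4KD effect between 8C and 4C was not called, at -0.25 for *Crabp1* (SE 1.07) and 1.41 for *Crabp2* (SE 1.10), both with an adjusted p of 1.00, where 0% of genes were called and 259 had an unadjusted p under 0.05.

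Over the experiments, *Crabp1* was above 0 in 5 of the 10 pools at 8C with *Rarg* siRNA, in 3 of the 8 KD pools without it, and in 2 of the 6 NC pools. Split by *Nr5a2* siRNA instead, it was above 0 in 7 of 10 pools with that siRNA and in 3 of 14 without it. In the same split *Aldh1a2* was above 0 in 7 of 10 and 2 of 14 pools, *Crabp2* in 4 and 0, and *Stra8* in 2 and 3. *Dhrs3* was above 0 in 2 pools of each set, and the remaining members in 0 pools with that siRNA. *Stra8* was above 0 in 4 of 10 pools with *Rarg* siRNA, 0 of 8 KD pools without it and 1 of 6 NC pools, with 1.87 FPKM as the highest value. These counts span experiments and were not tested. No member had a value above 3.69 FPKM in any 8C pool.

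**Figure D3:**
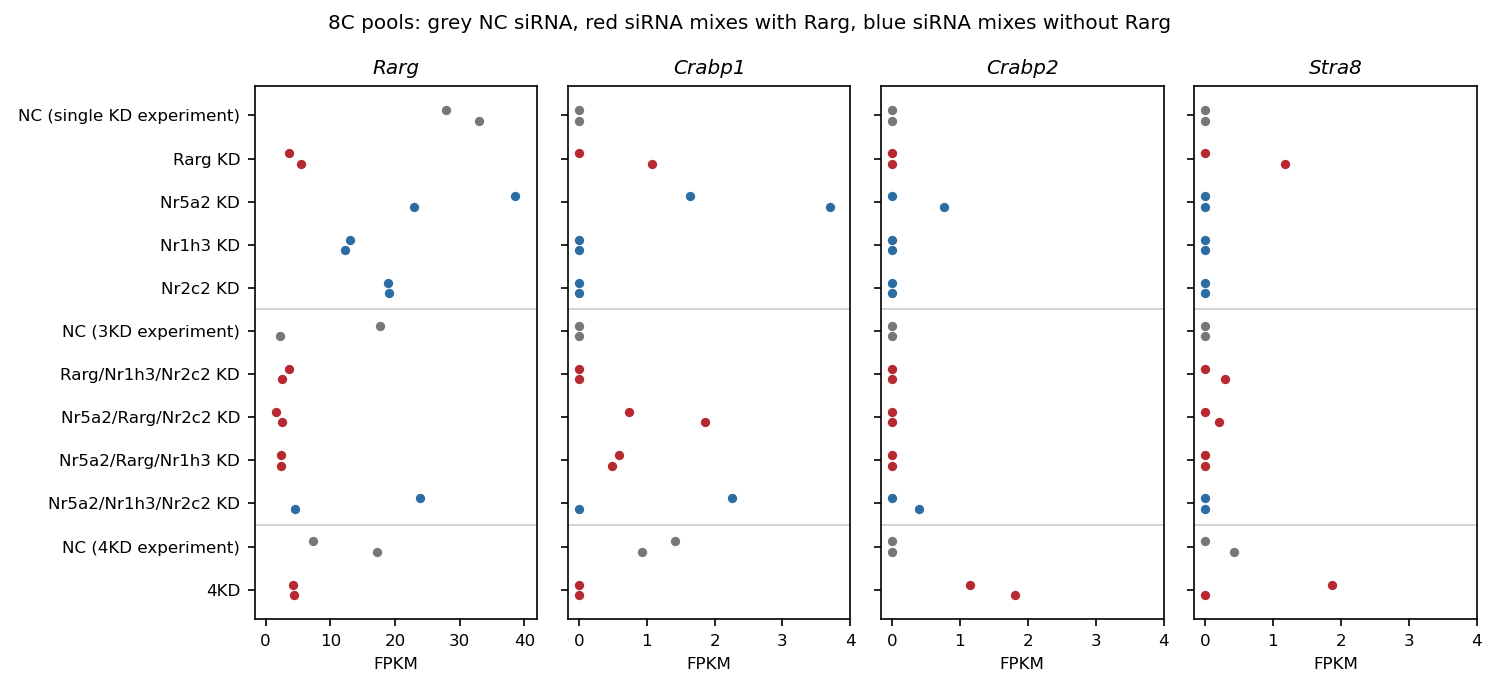
FPKM of *Rarg*, *Crabp1*, *Crabp2* and *Stra8* in the 24 pools at 8C, 2 points per siRNA group, in the single KD, triple KD and 4KD experiments from top to bottom. Grey points are NC pools, red points siRNA mixes with *Rarg* and blue points mixes without it. *Rarg* lies between 1.61 and 5.47 in every red pool, and the 3 members lie between 0 and 3.69 in all pools.

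At 2C, where the members were expressed, no *Rarg* KD was made, and the groups bear on *Nr5a2*. *Nr5a2* itself was at 19.4 and 24.3 FPKM in 2C NC and at 2.72 and 6.13 in KD pools. *Crabp1* measured 12.3 and 26.2 FPKM in NC and 72.2 and 119.7 in KD pools. Both KD pools lay above both NC pools, with a log2 difference of 2.30 (SE 0.50, unadjusted p = 0.00231, adjusted p = 0.890 in limma). *Stra8* measured 4.65 and 1.42 in NC and 5.56 and 11.9 in KD pools, with a difference of 1.32 (SE 0.60, adjusted p = 0.890). *Rarg* was at 9.89 and 9.57 in NC and 19.4 and 13.6 in KD pools (0.69, SE 0.42, adjusted p = 0.890). *Crabp2* (29.5 and 10.7 against 14 and 23.2) and *Dhrs3* (1.53 and 0 against 2.01 and 1.03) overlapped.

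The 4 members tested gave 0 calls here, where 2 of 11958 genes were called (0.0167%) and 558 had an unadjusted p under 0.05. The fit had 2 residual degrees of freedom, and a missing call does not show that the groups were alike. The median of all genes was 0.23, and relative to it *Crabp1* differed by 2.07. Leaving out any 1 of the 4 pools kept the difference of *Crabp1* between 1.79 and 2.82. The header of NC replicate 1 carries another series of library numbers than those of the other 3 pools. Summed cumulus and granulosa markers measured 26.0 and 62.4 FPKM in NC and 47.2 and 52.6 in KD pools and overlapped, as did the late 2C markers (356 to 1115 against 650 to 1040), and their part in the difference was not tested.

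In the single 2C embryos the base edit gave the other direction for *Crabp1*. It had a lowest, median and highest value of 0, 6.99 and 112 FPKM in 14 BE + sgRNA embryos, against 3.73, 48.2 and 237 in 8 BE and 1.98, 14.9 and 68.5 in 8 sgRNA embryos. The 3 embryos at 0 were all BE + sgRNA embryos, and the ranges overlapped. The log2 difference from the mean of both control groups was -2.02 (SE 0.61, unadjusted p = 0.00226, adjusted p = 0.216), so it was not called, in a comparison that called 1 of 12420 genes (0.00805%) with 1444 at an unadjusted p under 0.05. It was -2.81 against the BE group alone and -1.23 against the sgRNA group alone. Within the eBE run it was -1.57 against both control groups. The BE4 run held no sgRNA embryo at 2C, so its value of -3.87 is against BE embryos alone. These included the highest *Crabp1* value of all, 237 FPKM. The runs thus differ in the control as well as in the editor that headers name. The pool and single embryo experiments differ in method and in the pooling of embryos, and the difference between their effects on *Crabp1* was not tested.

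*Stra8* had medians of 1.56 FPKM in BE + sgRNA embryos (0 to 13.8), 4.35 in BE (0 to 11.3) and 10.5 in sgRNA embryos (0 to 27.0), with a difference of -0.87 (SE 0.47, adjusted p = 0.464). *Crabp2* had medians of 13.6, 18.4 and 16.0 and a difference of -0.02 (SE 0.48, adjusted p = 0.990). *Cyp26a1* (-0.42, SE 0.41), *Dhrs3* (0.31, SE 0.27) and *Aldh1a2* (-0.14, SE 0.30) were not called either. At 8C no member passed the filter in single embryos, where 0.164% of 9760 genes were called. *Crabp1* was above 0 in 7 of 14 BE + sgRNA embryos (highest 2.76 FPKM) and in 3 of 16 controls (2.75), and *Stra8* in 7 of 14 (3.91) and 1 of 16 (0.238), which includes the 2 BE + sgRNA libraries with a 4-cell header, at 2.38 and 3.91 FPKM of *Stra8*. No p is given for these counts.

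**Figure D4:**
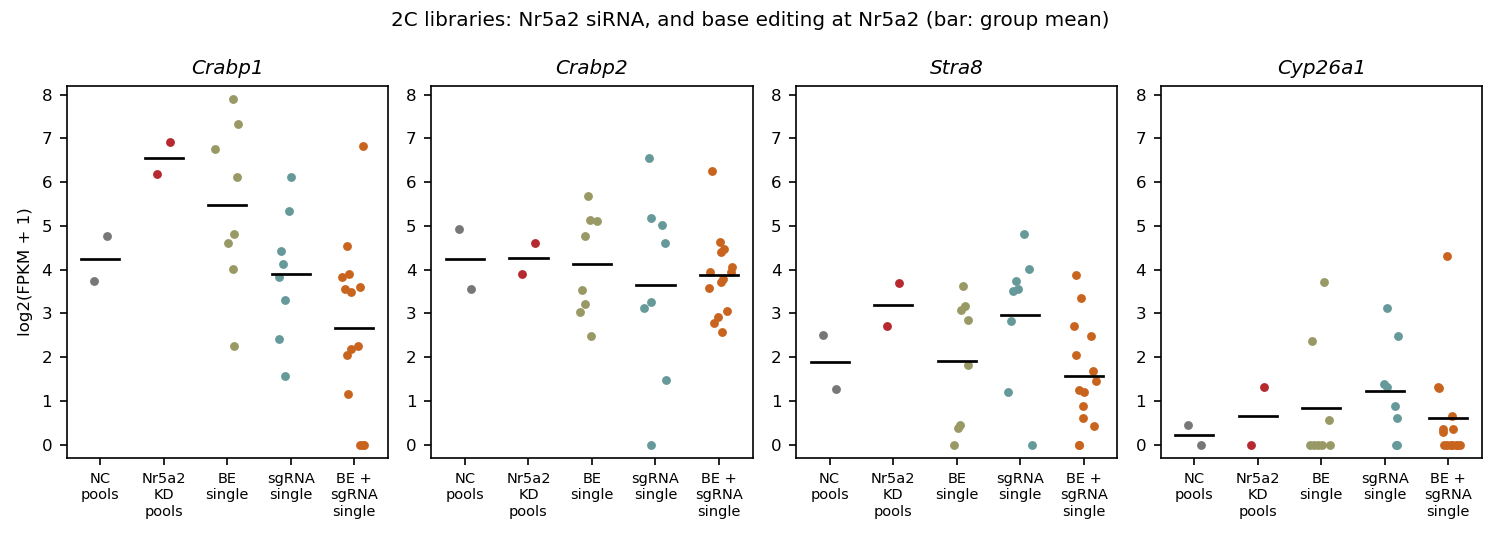
*Crabp1*, *Crabp2*, *Stra8* and *Cyp26a1* as log2(FPKM + 1) in the 2C libraries, with NC and *Nr5a2* KD pools on the left and single BE, sgRNA and BE + sgRNA embryos on the right, and the group mean as a bar. *Crabp1* is higher in both KD pools than in both NC pools, and its BE + sgRNA embryos reach down to 0.

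The single 2C embryos differed widely in *Cyp26a1*, and a level of 4 FPKM was chosen after its values were seen. In 5 of the 30 single 2C embryos *Cyp26a1* was above 4 FPKM, at 18.8 (BE + sgRNA), 12.2 and 4.18 (BE), and 7.73 and 4.61 (sgRNA), and 14 of the 30 were at 0. The same 5 embryos measured 112, 237, 160, 8.86 and 68.5 FPKM of *Crabp1*, and 75.7, 50.2, 33.8, 35.2 and 92.5 of *Crabp2*, in the same order. All 5 lay above the median of *Crabp2* over the single 2C embryos, and 4 of them above that of *Crabp1*. Their *Rarg* values were 1.02, 2.72, 7.38, 15.5 and 9.76 FPKM, and their FPKM sums 180986, 197633, 199106, 257567 and 239196, below the median of 275750 for single 2C embryos.

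Over the 29 single 2C embryos without a 4-cell header, *Cyp26a1* and *Crabp2* had a Pearson r of 0.69 and a Spearman rho of 0.59 on log2 values (r of 0.57 without the 2 embryos farthest from the median of *Cyp26a1*). *Cyp26a1* and *Crabp1* had an r of 0.55 (0.36 without 2 embryos), and *Crabp1* and *Stra8* an r of 0.52 (0.43). *Cyp26a1* and *Rarg* had an r of -0.51, which was -0.19 without 2 embryos and so rests on them. *Rarg* had an r of 0.80 with the FPKM sum of the library and 0.72 with the summed cumulus and granulosa markers, and *Cyp26a1* one of -0.46 and -0.54 with these. The embryos come from 3 injection groups and several runs of library numbers, share the depth and scale of their libraries across genes, and the values are given as a description with no test.

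Across the 22 group means, the genes most like *Crabp2* among 9180 genes were *Tesc* (r = 0.99), *Scml2* (0.99) and *Il7* (0.99). Those most like *Crabp1* were *Gpr83* (0.96), *Myl3* (0.96) and *Duoxa2* (0.95), each with its highest mean in the 2C *Nr5a2* KD group, as for *Crabp1*. Those most like *Stra8* were *Crnde* (0.97), *Sohlh1* (0.97), a germ cell transcription factor gene, and *Gpx6* (0.96). *Crabp2* and *Stra8* had an r of 0.92 with each other and *Crabp1* and *Crabp2* one of 0.91. All these values rest mainly on the difference between the 2C groups and the later groups.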

How the data were processed

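The deposited values are FPKM per gene, which the authors made with TopHat and Cufflinks on mm9 with the refFlat annotation from Smart-seq2 reads. They hold no read counts, so depth is unknown, and no interval or detection limit could be given. Spacing of values under 0.5 FPKM gave a relative depth. Members and gene lists were chosen with earlier results of these data known.

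Each experiment was fitted on its own with limma 3.58.1 (R 4.3.3), except for the changes from 2C to 4C and to 8C in NC pools. Those came from a joint fit of all NC pools by stage, in which 8C pools of different experiments formed a single group. All fits used log2(FPKM + 1) and genes whose mean FPKM reached 1 in any group of the fit. Moderation used a trend, p-values were adjusted (Benjamini-Hochberg) over all genes tested, and a gene was called at an adjusted p under 0.05. Fold changes on this scale understate changes of low genes. The study's own test needs counts and could not be repeated. Replicates of the pools are separate samples in the labels, and nothing says whether they came from separate collections, so the p-values measure the spread between these samples. Pools with the same number deviated alike across genes in the triple KD experiment (r = 0.28 to 0.51 over 10 pairs of groups), but not in the single KD (-0.04 to 0.14) or 2C experiment (0.00). In the 4KD experiment they did so within a stage (0.35 at 4C and 0.34 at 8C) and not across stages (-0.30 to -0.27). Pairing is read from the data, and a replicate block was fitted as an alternative.

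Alternatives were a pseudocount of 0.1, no filter or a minimum mean of 5 FPKM, quantile normalization, median-ratio scaling, no trend, a replicate block, fewer groups in the fit, the study's limits (adjusted p under 0.01, change of 2 or more on the log2 scale), leaving out each pool, 1 control group alone, runs of library numbers and leaving out libraries with a 4-cell header. A fit that dropped the library of lowest FPKM sum and a replicate block within each stage of the 4KD experiment were added after the data were seen. All 8 members were named, with the siRNA targets and those other retinoic acid genes that were called or belong to the receptors. Lists were the receptors, synthesis and reduction, uptake, carriage and storage (2 of its 10 genes not listed under that symbol), catabolism, coregulators and textbook targets, and markers of late 2C, later cleavage, oocyte-deposited, cumulus and blood RNA. Some genes of these lists are not reported here by name.  Scripts were checked on simulated data with 200 changed genes. Promoters came from RefSeq windows (GRCm38.p6), matched to mm9 by sequence, and gene positions from GENCODE vM1. Python 3.11.15 was used for the rest.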

Additional observations from a re-analysis of the deposited data

Results flagged for a closer look

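Among 21 sets of 1 member in 1 group of 8 single control embryos, 7 held 1 embryo far from the other 7 by Dixon's criterion, all at 8C and all with the other 7 embryos at 0 FPKM. Chance flags about 1 in 20 such groups, and a single value above 0 among zeros always meets the criterion. In BE embryos at 8C these were *Cyp26a1* at 0.692 FPKM (replicate 8), *Crabp2* at 0.449 and *Stra8* at 0.238 (both replicate 2), *Dhrs3* at 0.245 (replicate 7) and *Aldh1a2* at 0.411 (replicate 1). In sgRNA embryos at 8C they were *Cyp26a1* at 0.707 (replicate 7) and *Dhrs3* at 1.5 (replicate 6).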

How the results depend on the processing

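Of 21 comparisons, 18 called 0 members. Most of these tested 0 to 2 members in groups of 2 pools, so a count of 0 that stays 0 says nothing about stability. In *Nr5a2* KD at 8C the count was 1 under quantile normalization and 0 to 1 when 1 pool was left out. From 2C to 4C, 2 members became 1 with a pseudocount of 0.1, with only the groups compared in the fit and under the study's limits, and 1 to 3 when 1 pool was left out, against 2 to 4 from 2C to 8C in NC pools. In single control embryos 6 members became 3 under a mean FPKM of at least 5, which leaves 3 to test, and 3 under the study's limits. The number of members with a mean of at least 1 FPKM was 6, also at 0.5.

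Some uncalled differences changed sign, and the cause was not tested. *Crabp1* in *Rarg* KD against the other single KD groups was 0.22 with a pseudocount of 0.1 and ran from -0.61 to 0.45 when 1 pool was left out. With 1 pool left out, *Crabp1* ran from -1.11 to 0.59 in the triple KD with against without *Rarg* siRNA, from -2.0 to 0.29 in 4KD at 4C and from -1.40 to 0.89 in the difference between stages, and *Crabp2* from -1.15 to 0.93 in 4KD at 4C and from -0.57 to 1.3 from 4C to 8C in 4KD pools. In 2C *Nr5a2* KD, *Crabp2* was -0.21 with median-ratio scaling, -0.22 with quantile normalization and -0.67 to 0.70 with 1 pool left out, and *Dhrs3* from -0.033 to 1.31. In 2C BE + sgRNA embryos, *Crabp2* was 0.19 with a pseudocount of 0.1 and 0.21 against the sgRNA group alone. *Dhrs3* was -0.20 within the BE4 run, where BE embryos were the only control, and *Aldh1a2* was 0.55 within the eBE run.

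The replicate block changed 0 of 18 counts of members called and 0 of 30 calls of single members. The block within stage, chosen after the data were seen, gave 0 members called in the 4KD comparisons too. In the triple KD experiment the block left *Crabp1* at -0.26 with against without *Rarg* siRNA. With 1 pool left out of a pair, the lone pool was assumed to vary like the other groups. No depth is known, so an FPKM of 0 sets no limit.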

Other observations

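The library labelled 2C sgRNA replicate 8, with a 4-cell name in its header, had *Crabp1* at 1.98 FPKM and *Crabp2*, *Stra8*, *Cyp26a1*, *Dhrs3* and *Aldh1a2* at 0, the lowest value of *Crabp1* among the 16 control embryos at 2C. The libraries labelled 8C BE + sgRNA replicates 13 and 14, with such a name too, had *Crabp1* at 1.10 and 0.967 FPKM and *Stra8* at 2.38 and 3.91, the 2 highest *Stra8* values among the 30 single 8C embryos. Of 3 blood cell genes, *Hba-a1* had a median of 52.0 FPKM in single 2C embryos and 6.70 in single 8C embryos, while *Ptprc* was at 0 in all 60 and *Hbb-b1* in all but 1.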
